A study of Mus musculus with 2 samples.

Results

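Wnt signalling is read here in superficial zone cells, the chondrocyte layer at the surface of articular cartilage, through the genes of its secreted ligands, their receptors, and the agonists, antagonists and feedback factors around them. The genes were taken by symbol, under a rule drawn up with earlier results of these data known. It covers every Wnt, Fzd, Sfrp, Rspo and Dkk gene, Lgr4 to Lgr6, and a named set. The named set was Frzb, Wif1, Axin2, Lef1, Nkd1, Nkd2, Notum, Znrf3, Rnf43, Sp5, Ror1, Ror2, Lrp5 and Lrp6. Tcf7 was not analysed here. The rule found 58 genes, read by 113 probe sets, among 18193 named genes on the array. The cells came from the femur and tibia joints of 4-day-old ICR mice and were kept in DMEM with 10% serum. One culture stayed without retinoic acid (control, n = 1), and the other had 10 μM retinoic acid, the active form of vitamin A, for 24 h (n = 1). RNA of each went to 1 Affymetrix Mouse Genome 430 2.0 array.

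No replicate exists in either group, so no test was run and no p-value is given. Every fold below compares these 2 arrays, and it can hold a difference between cultures as well as the treatment. The labels do not state how many mice each culture held. Values are MAS5 signals, 1 number per probe set on a linear scale, with array medians of 26.5 (control) and 29.7 (retinoic acid). A signal at or below its array's median was treated as not measured. Where only 1 array was above its median, the ratio to the median of the other is a lower limit (a bound), marked "at least". Each gene is represented by the brightest of its probe sets, by mean log2 signal, and the log2 ratio is retinoic acid over control throughout. Signals of different genes come from different probes, so levels are compared between arrays and never between genes.

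Wnt proteins are secreted lipid-modified ligands that bind Frizzled receptors, encoded by the Fzd genes. With the co-receptors Lrp5 and Lrp6 they stabilise beta-catenin, which switches on target genes together with Tcf and Lef factors. Other branches run through Ror receptors and act on cell polarity. R-spondins bind Lgr receptors and spare Frizzled from the membrane ubiquitin ligases Znrf3 and Rnf43, while Sfrp proteins and Wif1 bind Wnt ligands outside the cell. In developing joints, Wnt ligands such as Wnt9a, formerly called Wnt14, are known for holding back cartilage differentiation, and Frzb is known as a cartilage Wnt antagonist.

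The results turn on genes of opposite direction, so promoter windows are shown for a pair that was lower (Sfrp2 and Frzb) and a pair that was higher (Wnt9a and Axin2). Each window runs from 250 bases before to 50 after the gene's start, as RefSeq gives it on GRCm38.p6, written 5′ to 3′ along the gene. Sfrp2 lies at chr3:83766071-83766370 (plus strand), Frzb at chr2:80447347-80447646 (minus strand), Wnt9a at chr11:59306680-59306979 (plus strand) and Axin2 at chr11:108920099-108920398 (plus strand). Capitals mark matches to retinoid receptor half-sites or to the Tcf and Lef core.
Sfrp2: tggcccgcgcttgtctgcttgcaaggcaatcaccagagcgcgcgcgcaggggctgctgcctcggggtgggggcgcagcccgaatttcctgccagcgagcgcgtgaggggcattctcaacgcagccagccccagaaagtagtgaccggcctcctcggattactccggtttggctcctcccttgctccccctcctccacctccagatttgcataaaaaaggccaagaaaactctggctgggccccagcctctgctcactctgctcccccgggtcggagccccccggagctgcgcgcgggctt
Frzb: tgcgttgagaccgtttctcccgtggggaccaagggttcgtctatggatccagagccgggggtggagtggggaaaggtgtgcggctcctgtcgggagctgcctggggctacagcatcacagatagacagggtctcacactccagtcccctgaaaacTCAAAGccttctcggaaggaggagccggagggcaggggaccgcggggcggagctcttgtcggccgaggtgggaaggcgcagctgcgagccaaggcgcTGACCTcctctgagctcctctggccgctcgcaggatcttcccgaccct
Wnt9a: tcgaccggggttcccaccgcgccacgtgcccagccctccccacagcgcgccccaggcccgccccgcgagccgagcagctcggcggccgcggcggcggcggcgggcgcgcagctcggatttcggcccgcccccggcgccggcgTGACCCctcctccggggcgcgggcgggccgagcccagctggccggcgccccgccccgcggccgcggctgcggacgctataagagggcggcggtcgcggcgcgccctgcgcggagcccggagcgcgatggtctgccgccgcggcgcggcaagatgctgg
Axin2: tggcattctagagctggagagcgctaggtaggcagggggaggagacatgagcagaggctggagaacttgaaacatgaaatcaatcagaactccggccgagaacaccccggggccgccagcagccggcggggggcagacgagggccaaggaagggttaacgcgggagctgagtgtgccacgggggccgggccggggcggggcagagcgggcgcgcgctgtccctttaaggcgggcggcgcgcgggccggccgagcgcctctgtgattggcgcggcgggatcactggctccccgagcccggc

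The half-sites searched were AGGTCA, then GGGTCA, then AGTTCA and last GGTTCA, which retinoic acid receptor dimers bind as spaced repeats, and the Tcf and Lef core was CTTTGA, all on both strands. No letters are shared between matches of different motifs in the windows shown. In Frzb, AGGTCA on the opposite strand begins 3 bases into the transcript and CTTTGA on the opposite strand lies at −95 from the start site. In Wnt9a, GGGTCA on the opposite strand lies at −108. The Sfrp2 and Axin2 windows held no match. Windows of 39 of the 58 genes were read, 46 in all, with any on 1 chromosome left out for members but not for all windows. A half-site lay in 19 of these windows (41.3%) against 43.7% of all 32817 promoter windows of this length, and CTTTGA lay in 8 (17.4%) against 16.0%. Direct repeats of the half-sites spaced by 1, 2 or 5 bases, the arrangements that retinoid receptors bind, were in 0 of the 46 windows, against 0.222%, 0.268% and 0.0975% of all windows. These are letter matches in a short window and say nothing of binding.

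Of the 58 genes, 41 were above the median on at least 1 array and 32 on both. With retinoic acid 7 of the 41 (17.1%) were at least 2-fold higher, against 6.54% of the 11884 genes measured on the array. Another 6 (14.6%) were lower by 2-fold or more, against 4.34%. Both shares were above those of all genes, in opposite directions. The set was chosen with earlier results of these data known, so the shares only describe it. Over the measured members the log2 ratio had a median of −0.02, and over all genes of 0.01. The higher genes were Wnt9a, Fzd3, Fzd10, Lgr4, Lgr6, Sfrp4 and Axin2, of which Wnt9a, Fzd10, Lgr6 and Axin2 are bounds. The lower genes were Fzd9, Lgr5, Rspo2, Rspo3, Frzb and Sfrp2, and each was above the median on both arrays. The count of higher genes depends on the floor for low signals: it was 4 with the floor at the 70th percentile and 14 with no floor. Over all named genes the same count was 777, and 449 and 2137 under these settings in turn. With no floor all 58 members and all 18193 named genes count as measured, so 6.54% is not the share to set beside the 14.

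**Figure D1:**
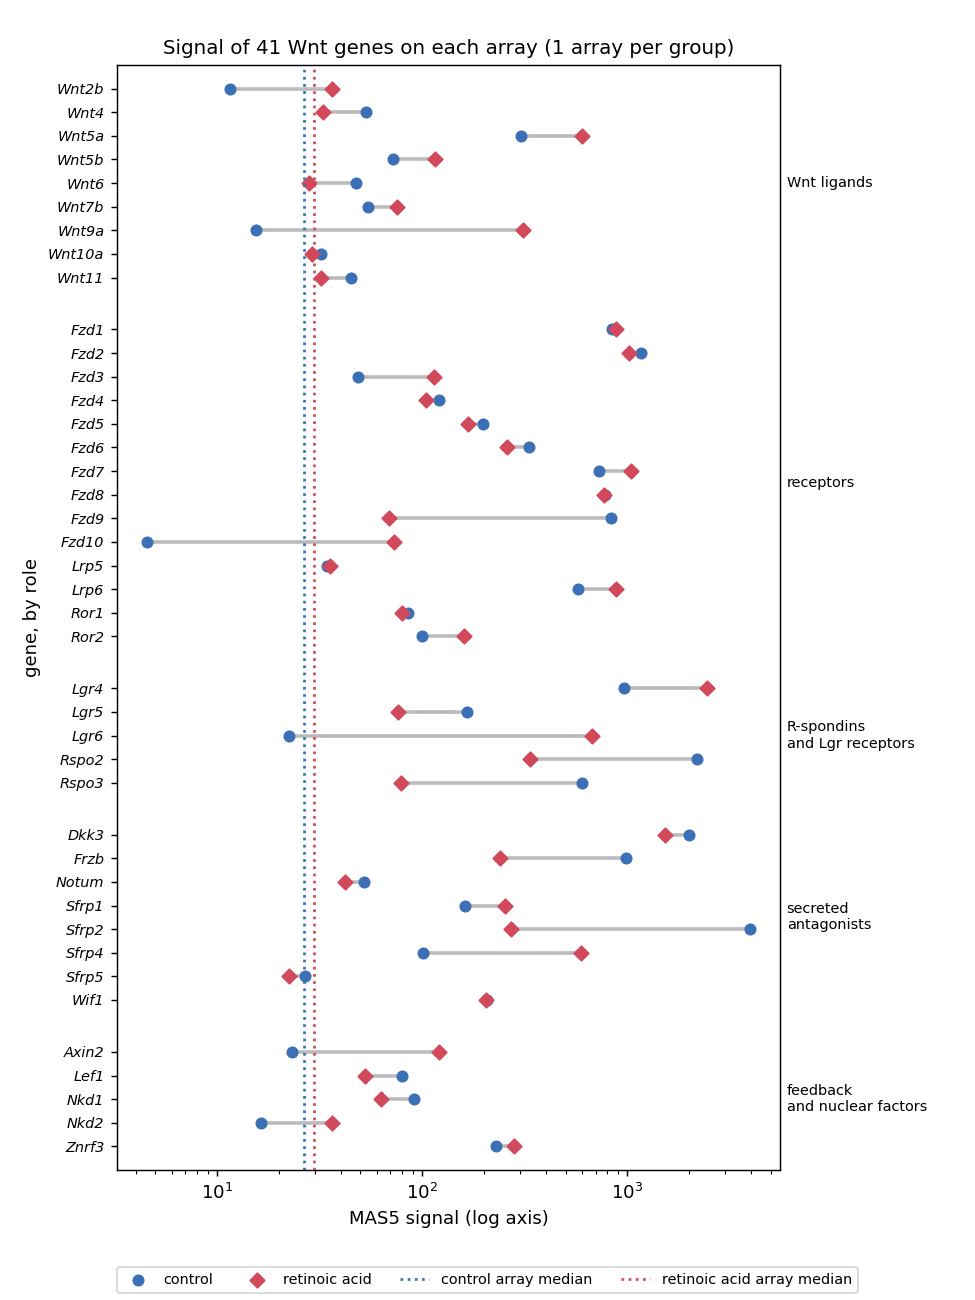
MAS5 signal on a log axis of the 41 Wnt genes above the median on at least 1 array, with 1 row per gene grouped by role. Circles are the control array, diamonds the retinoic acid array, and dotted lines each array's median (26.5 and 29.7). The long bars running left to right are Wnt9a, Fzd10, Lgr6, Sfrp4 and Axin2, and those running right to left are Fzd9, Rspo2, Rspo3, Frzb and Sfrp2.

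Among the ligands, Wnt9a and Wnt5a were higher with retinoic acid, and 10 of the 19 Wnt genes were not measured on either array. Wnt9a had a signal of 15.4 on the control array, below the median, and 309 with retinoic acid, at least 11.6-fold higher. A dimmer Wnt9a probe set read 13.7 and 32.4, which gives a bound of 1.22-fold, so the size rests on the brighter one. Wnt5a, a ligand best known for the non-canonical branches, had signals of 304 and 598, 1.97-fold higher and so just short of the 2-fold mark. Its other probe sets above the median on both arrays read 124 and 253 (2.04-fold) and 59.7 and 216 (3.62-fold). All 3 measured Wnt5a probe sets were therefore higher, with log2 ratios from 0.98 to 1.86.

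Of the other ligands above the median on both arrays, Wnt5b, Wnt7b, Wnt4 and Wnt11, none reached 2-fold. Wnt5b read 72.4 and 115, 1.59-fold higher, but a second probe set read 65.7 and 65.3. Wnt7b went from 54.6 to 74.9 (1.37-fold higher). Wnt4, from 53.1 to 33.0, was 1.61-fold lower, and Wnt11, from 45.1 to 31.98, was 1.41-fold lower. Wnt6 (47.8 and 28.2) was at least 1.61-fold lower and Wnt10a (32.03 and 29.1) at least 1.08-fold lower, while Wnt2b (11.6 and 36.3) was at least 1.37-fold higher. For Wnt2b the bound hides the size, since its log2 ratio was 1.65 with no floor. Most of these signals lie close to the median of an array, where probe sets of 1 gene scatter most. The log2 ratios of probe sets that read the same gene had an SD of 0.37 for genes with a mean signal up to 100, 0.31 from 100 to 500 and 0.22 above 500. Over all signals the SD was 0.39 for the member genes and 0.30 for all genes. That scatter is within the same RNA and holds no variation between cultures.

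Wnt genes often lie side by side on the genome, and 4 neighbouring pairs are in this set. Wnt9a lies next to Wnt3a, which was below the median on both arrays (24.1 and 2.91). Wnt6 lies next to Wnt10a, and both were above the median on the control array only. The pairs Wnt9b with Wnt3 and Wnt10b with Wnt1 were below the median on both arrays. The other unmeasured ligands were Wnt2, Wnt7a, Wnt8a, Wnt8b and Wnt16.

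Every receptor gene was measured, and among those above the median on both arrays Fzd9 stood furthest from 1. Fzd9, a Frizzled gene, had a signal of 834 on the control array and 68.5 with retinoic acid, 12.2-fold lower. Among the 10722 genes above the median on both arrays its ratio ranked 8 from the lowest. Fzd9 is read by 1 probe set, so no second reading exists. Fzd10 went the other way, from 4.56, far below the median, to 73.0, at least 2.75-fold higher, with a log2 ratio of 4.00 where no floor is set. Fzd3, a Frizzled of the polarity branch, read 48.6 and 114 on its brightest probe set, 2.34-fold higher. A second Fzd3 probe set above the median on both arrays read 55.3 and 60.1 (1.09-fold higher), and the median of the 2 log2 ratios, 0.67, is short of 2-fold.

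The other 7 Fzd genes were within 2-fold. Fzd1 had signals of 839 and 885 and Fzd8 of 781 and 772, so the arrays differed little for either. Fzd2 (1166 and 1023), Fzd4 (121 and 104), Fzd5 (199 and 167) and Fzd6 (333 and 258) were 1.14-fold to 1.29-fold lower on their brightest probe sets. A second Fzd4 probe set read 112 and 69.8, 1.61-fold lower. Fzd7 read 727 and 1047, 1.44-fold higher, but a dimmer probe set read 60.3 and 47.3, which is lower. Fzd8 also has a second probe set, at 167 and 291, that is higher where the brightest is level. For Fzd7 and Fzd8 the direction therefore depends on the probe set.

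The co-receptor gene Lrp6 read 578 and 886, 1.53-fold higher, and its second probe set gave a log2 ratio of 0.47 against 0.62. Lrp5 was near the median on both arrays, at 34.5 and 35.5. Of the Ror receptors, which bind Wnt5a, Ror2 read 99.7 and 160 (1.60-fold higher) and Ror1 85.4 and 79.9 (1.07-fold lower). Ror2 and Lrp6 were thus higher by less than 2-fold.

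**Figure D2:**
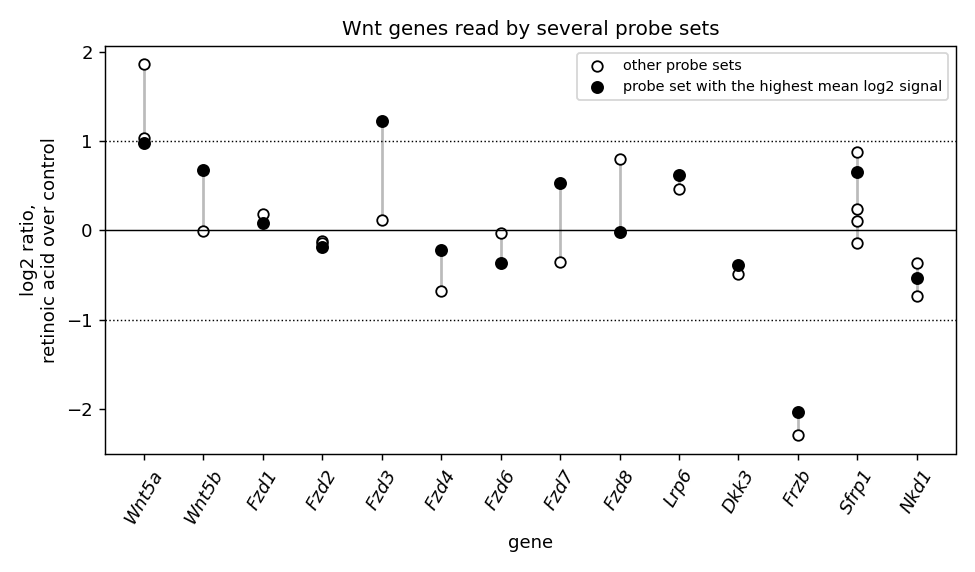
Log2 ratio of retinoic acid over control for each probe set of the 14 Wnt genes with more than 1 probe set above the median on both arrays. Filled circles are the brightest probe set of the gene, open circles the others, and dotted lines mark 2-fold. For 10 genes all probe sets have 1 sign, Frzb lies below −2 on both, and Wnt5b, Fzd7, Fzd8 and Sfrp1 have both signs.

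R-spondin genes were lower and their receptors split. Rspo2 had a signal of 2198 on the control array and 336 with retinoic acid, 6.55-fold lower. Rspo3 had 599 and 78.4, 7.64-fold lower. Their ratios ranked 33 and 26 from the lowest of the 10722 genes. A dimmer Rspo2 probe set lay at the edge of measurement (30.1 and 25.5), and the median over both probe sets was a log2 ratio of −1.37 in place of −2.71. Rspo1 and Rspo4 were below the median on both arrays, so both measured R-spondin genes were lower.

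Lgr4, Lgr5 and Lgr6 encode the R-spondin receptors, and they differed in direction. Lgr6 read 22.4, below the median, and 669 with retinoic acid, at least 25.2-fold higher. Its dimmer probe set read 29.98 and 191, 6.39-fold higher, so both readings are higher and differ in size. Lgr4 went from 966 to 2442, 2.53-fold higher, rank 369 from the highest. Lgr5, also known as a stem cell marker in other tissues, went from 166 to 76.6, 2.16-fold lower. The Lgr5 value is the call closest to the 2-fold mark: its log2 ratio of −1.11 was −0.38 with the floor at the 70th percentile and short of 2-fold with an offset in place of a floor.

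The secreted antagonists held the lowest and one of the highest ratios of the set. Sfrp2, which encodes a secreted Frizzled-related protein, had a signal of 3960 on the control array and 272 with retinoic acid, 14.6-fold lower. That ratio ranked 7 from the lowest of the 10722 genes. Frzb, the family member also called Sfrp3, read 988 and 240, 4.11-fold lower, and its second probe set 522 and 106, with log2 ratios of −2.04 and −2.30. Sfrp4 went the other way, from 101 to 597, 5.91-fold higher, rank 67 from the highest. Sfrp2 and Sfrp4 are each read by 1 probe set.

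The remaining antagonists were within 2-fold or not measured. Sfrp1 read 162 and 254 on its brightest probe set (1.57-fold higher), but its 5 probe sets ran from a log2 ratio of −0.14 to 0.88, with a median of 0.24. Dkk3, a Dickkopf relative, read 1994 and 1522, 1.31-fold lower, and the second probe set had a log2 ratio of −0.49. Wif1, which encodes Wnt inhibitory factor, read 206 and 204. Notum, whose product removes the lipid of Wnt proteins, read 52.0 and 41.9 (1.24-fold lower). Sfrp5 lay at the edge of measurement, at 26.9 and 22.4, and has no fold. Dkk1, Dkk2 and Dkk4 were below the median on both arrays. The Sfrp genes and Frzb thus went in both directions. Of the 5, 1 was past 2-fold upward (20%, against 6.54% of all genes) and 2 downward (40%, against 4.34%), with Sfrp5 counted though it has no fold.

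Axin2, a negative regulator that canonical Wnt signalling itself induces, read 23.1, just below the control median, and 121 with retinoic acid, at least 4.55-fold higher. Its dimmer probe set was below the median on both arrays (3.16 and 16.9). Nkd2, which encodes an inhibitor of Dishevelled, read 16.4 and 36.4, at least 1.37-fold higher. Its 4 probe sets were all higher with retinoic acid without a floor, but none was above the median on the control array. Nkd1 was lower, at 91.2 and 63.0 (1.45-fold), with log2 ratios from −0.74 to −0.37 on 3 probe sets. Lef1, the gene of a nuclear partner of beta-catenin, read 79.5 and 52.8, a log2 ratio of −0.59. Znrf3, the ligase gene, read 228 and 281, 1.23-fold higher. Rnf43 and the Wnt target gene Sp5 were below the median on both arrays. Axin2 was thus past 2-fold, and Nkd1 and Lef1 were not. The 17 Wnt genes of all roles that were below the median on both arrays had signals from 0.38 to 25.1.

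**Figure D3:**
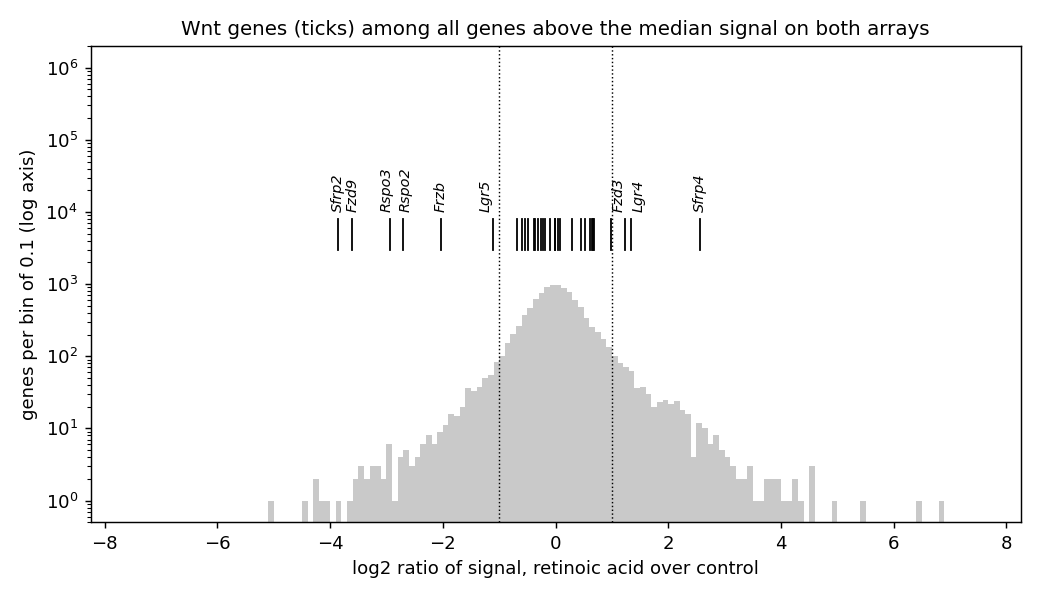
Histogram of log2 ratios, retinoic acid over control, of the 10722 genes above the median on both arrays, with counts on a log axis. Ticks are the 32 Wnt genes among them, named where past 2-fold (dotted lines), so Wnt9a, Fzd10, Lgr6 and Axin2, which have bounds, are not in it. Sfrp2, Fzd9, Rspo3, Rspo2 and Frzb lie far to the left and Sfrp4 to the right.

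Other genes of the pathway were read from 4 lists. In the list of intracellular genes of the canonical branch, 0 of 28 measured genes reached 2-fold upward (6.54% of all genes) or downward (4.34%). With no floor 1 did so downward. The list had a median log2 ratio of 0.20 beside 0.01 for all genes. Its genes furthest from 1 were Tle5 (430 and 749, 1.74-fold higher) and Tle1 (284 and 473, 1.66-fold higher), both of the Groucho family. The second Tle1 probe set had a log2 ratio of 0.35. Tcf7l1, a Tcf factor gene, was almost as far the other way (364 and 220, 1.66-fold lower). Among genes of Wnt secretion and other surface proteins, 2 of 14 passed 2-fold upward (14.3%, against 6.54% of all genes) and 0 downward (1 with no floor). Tpbg, whose product can restrain canonical Wnt signalling at the membrane, read 236 and 600 (2.54-fold higher), and Lrp4, a receptor gene related to Lrp5 and Lrp6, read 57.5 and 129 (2.24-fold higher). The Lrp4 log2 ratio was 0.08 with the floor at the 70th percentile and 0.91 with an offset in place of a floor, so 1 gene was left past 2-fold under each.

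In the list of planar polarity and other branches, 2 of the 15 measured passed 2-fold upward (13.3%, against 6.54%) and 0 downward. Daam2, a formin gene downstream of Dishevelled, read 169 and 702, 4.17-fold higher, with a log2 ratio of 1.56 on its second probe set. Vangl2, a core polarity gene, read 66.5 and 195 (2.93-fold higher), but its log2 ratio was 0.68 with the floor at the 70th percentile and 0.58 as the median over its probe sets, which leaves 1 gene upward. Cthrc1, named after its value was seen, lay just inside the mark at 2184 and 1101 (log2 ratio −0.99). The count downward was 1 with no floor and under each of the 3 other scalings.

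Known targets of the canonical branch went both ways, with 6 of the 24 measured past 2-fold upward (25%, against 6.54% of all genes) and 3 downward (12.5%, against 4.34%). Their log2 ratios had a median of 0.60, but of 0.24 with no floor. Fgf18, a growth factor gene, went from 11.6 to 225, at least 8.48-fold higher, and Tnfrsf19, a receptor gene, from 15.4 to 69.3, at least 2.61-fold higher. Nrcam (2.63-fold), Twist1 (2.29-fold), the survival and mitosis gene Birc5 (2.27-fold) and Ccn5 (2.22-fold) were higher as well. Tiam1 was lower, from 134 to 31.0 (4.32-fold), and so were Myc, from 746 to 321 (2.32-fold), and Snai2, from 4419 to 2027 (2.18-fold). With the floor at the 70th percentile the counts were 4 and 2, with Fgf18 at a log2 ratio of 0.89 and Tiam1 at −0.07. These genes answer to many pathways besides Wnt, and the list was chosen with earlier results of these data known.

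**Figure D4:**
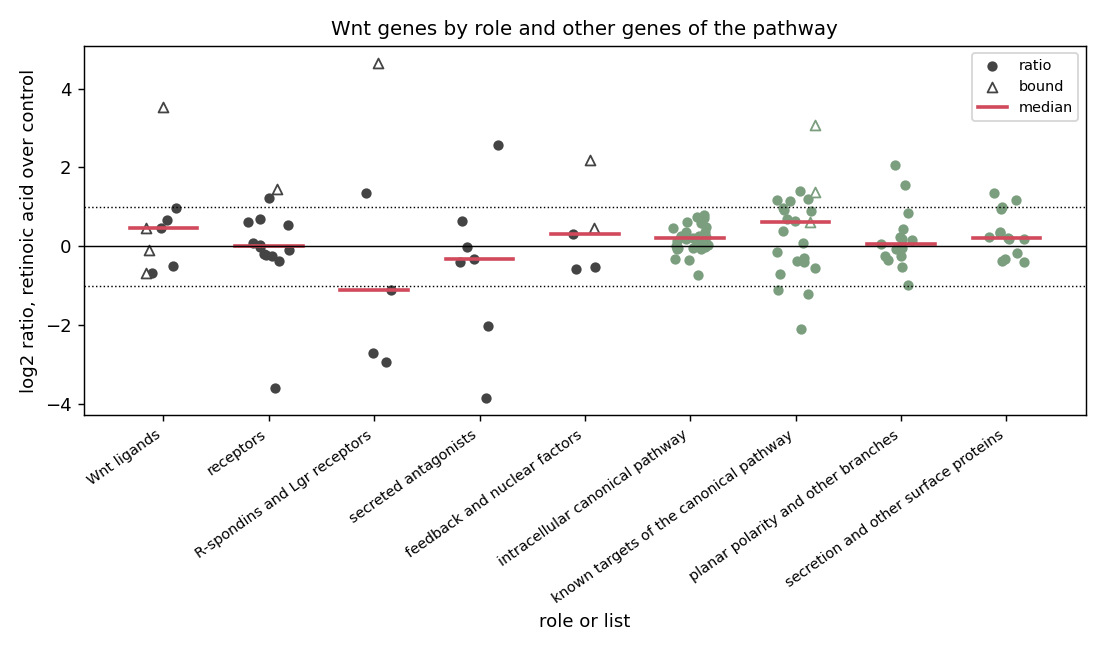
Log2 ratio, retinoic acid over control, of measured Wnt genes by role (dark) and of the 4 lists of other pathway genes (green). Circles are ratios, open triangles bounds, red bars medians, and dotted lines 2-fold, with points spread sideways for sight only. R-spondins and Lgr receptors have 2 of 5 measured genes past 2-fold upward and 3 downward. The intracellular canonical list has 0 of 28 either way. Over all genes the shares are 6.54% upward and 4.34% downward.

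Markers of the labelled cell type were present. All 9 chondrocyte markers read were above the median on both arrays, and all 9 were lower with retinoic acid (summed signal 47708 and 24177). Of these 5 (55.6%) were at least 2-fold lower, against 4.34% of all genes. Sox9 was 10.8-fold and Acan 32.3-fold lower. Col9a1 (1.68-fold), Prg4 (1.67-fold), Col2a1 (1.29-fold) and Comp (1.27-fold) were lower by less than 2-fold. Of the tendon markers 3 of 5 (60%) were at least 2-fold lower (summed signal 9931 and 5142). Most of that sum was Fmod (8768 and 4132). Kera among the 3 is a bound, and a second Scx probe set was higher (log2 ratio 0.28 against −1.25). Tnmd was 1.21-fold lower, and Mkx went the other way (122 and 232, 1.90-fold higher). Of the fibroblast markers 1 of 7 was at least 2-fold higher and 1 lower (42909 and 42469), 14.3% each way. Over all genes the shares were 6.54% higher and 4.34% lower. Endothelial, erythroid and adipocyte markers were mostly below the median on both arrays (5 of 6, 3 of 3 and 3 of 4). Their summed signals were 77.0 and 89.6, 8.47 and 8.72, and 253 and 2708, the last from Fabp4 (244 and 2689). Macrophage markers summed to 540 and 617, with Ptprc below the median, skeletal muscle markers to 349 and 401, and Schwann and neural markers to 36.5 and 42.8. Of the osteoblast markers 2 of 5 (40%, against 4.34%) were at least 2-fold lower, Sp7 and Alpl (summed signal 365 and 278). The other 3 went the other way: Phex was at least 1.76-fold, Dmp1 at least 1.54-fold and Ibsp 1.13-fold higher. Of the 5 smooth muscle markers measured, Rgs5 was higher by 2-fold or more and Des lower (20% each way). Tagln (1.99-fold) and Acta2 (1.37-fold) were higher by less and Cnn1 (1.65-fold) lower. Their summed signal was 4092 and 5856, most of it Acta2 (3165 and 4340). In a bulk culture, fewer cells of a type and less RNA per cell cannot be told apart, and the part of these markers' differences in the values of Sfrp2, Frzb, Fzd9 and the R-spondins was not tested.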

How the data were processed

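RNA of 2 mouse cultures, grouped by the treatment in the labels, was read on 1 array each. The deposited intensity values are MAS5 signals, per the submitters' processing notes, linear by their range (0.0197 to 13926). The scaling target and version of MAS5 were not given in the sources used here. Depth has no meaning for arrays, and their number limits the precision.

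Of 45037 probe sets other than controls, 34945 have 1 gene symbol in the platform annotation and were used, 932 with several and 9160 with none were not. All 58 member genes matched a current gene table by Entrez identifier, with 0 symbols changed. Promoter sequences came from RefSeq windows on GRCm38.p6, 250 bases before to 50 after each start, with 46 windows of 39 member genes set beside all 32817. Each array's median over probe sets other than controls was the floor, and 2-fold the mark for counting. Where a bound fell below 1, no fold is given. Every member above the floor on 1 array is named. In each pathway list those past 2-fold are named, up to 8 by size, or the 2 furthest from 1. Snai2, Cthrc1 and Tcf7l1 were added after their values were seen. The members and lists were chosen with earlier results of these data known. The counting was tested on simulated data with large changes planted in bright genes only. True changes near 2-fold or in genes near the floor were not covered. Alternatives were 5 treatments of the floor, 3 scalings and 2 rules for probe sets. Python 3.11.15, numpy 2.4.6, pandas 2.3.3, statsmodels 0.14.6 and matplotlib 3.10.9 were used.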

Additional observations from a re-analysis of the deposited data

How the results depend on the processing

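The count of member genes at least 2-fold higher was 7, 4 with the floor at the 70th percentile and 14 with no floor, where genes below the array medians enter. It was 6 to 9 under the other 8 settings. The count of genes at least 2-fold lower was 5 to 8 in all 10 settings against 6. The median over members ran from −0.09 to 0.09. The median of the secreted antagonists, −0.31, was 0.0039 with the median signal added as an offset, a setting that counts Dkk1, Dkk2, Dkk4 and Sfrp5 as measured. Of the 13 calls, 9 were past 2-fold in all 10 settings: Wnt9a, Lgr4, Lgr6, Sfrp4, Fzd9, Rspo2, Rspo3, Frzb and Sfrp2. Fzd10 and Axin2 had no value with the floor at the 70th percentile and kept the call in the other 9. Fzd3 and Lgr5 lost it under 2 settings each, and Fzd3 had no value at the 70th percentile. Wnt9a ran from a log2 ratio of 1.35 to 4.32, since its bound moves with the floor. Over all named genes the count at least 2-fold higher ran from 449 to 2137 and lower from 260 to 2106. The lowest counts came with the floor at the 70th percentile and the highest with no floor. The number of genes measured also moves with the floor. Movement of medians and log2 ratios was judged against the SD of 0.30 between probe sets of 1 gene, since no replicates exist. Counts were taken as unmoved when equal or within a factor of 1.5. No paired analysis was possible because each group has 1 array.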
